A study of Mus musculus with 15 samples.

Results

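The nuclear genes for subunits of the respiratory chain and ATP synthase were followed from Ly6Chi blood monocytes to 3 subsets of macrophages of the small intestine. Members were the protein-coding genes whose symbols began with Ndufa, Ndufb, Ndufc, Ndufs, Ndufv, Uqcr, Cox4i, Cox5, Cox6, Cox7, Cox8, or Atp5, together with Sdha to Sdhd, and symbols beginning with Ndufaf or Sdhaf were left out. The rule used names and no measured value. It took 82 of the 19456 genes counted, of which 36 were assigned to complex I, 4 to complex II, 8 to complex III, 17 to complex IV, and 16 to complex V (ATP synthase). The remaining member, Atp5s, encodes factor B, a protein of ATP synthase that is not one of its structural subunits. Ndufa4 and Ndufa4l2 were placed with complex IV, where the Ndufa4 protein is now known to sit. The genes Cyc1 and Usmg5, which also encode subunits, were outside the rule because of their symbols, and Cox7b2, Cox8b, Cox8c, and a second record of Atp5o met it but had no row among the genes counted.

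The 15 libraries came from adult male wild-type C57BL/6 mice and were made from sorted cells: 3 from Ly6Chi monocytes of peripheral blood, and 4 from each macrophage subset, namely cells that lacked both surface proteins (Tim-4-CD4-), cells with CD4 alone (Tim-4-CD4+), and cells with both (Tim-4+CD4+). Where values of the 3 subsets are listed, they follow this order. No animal was treated. Cells of 3 mice were pooled for each library, except for monocyte replicate 2, which came from 4 mice, so a replicate is a pool and not a single animal. Monocytes came from blood and macrophages from intestine, so that population and tissue of origin cannot be told apart in the comparisons with monocytes. The libraries held 39388763 to 151510641 counted reads. Several markers followed the sort. Ly6c2 averaged 1092 counts per 1000000 reads (CPM) in monocytes and at most 1.72 CPM in a macrophage subset. C1qa averaged 2.31 CPM in monocytes and at least 3462 CPM in the macrophages. Cd4 averaged 22.9, 531, and 816 CPM in the 3 subsets, and Timd4, the gene of Tim-4, averaged 1.11, 1.7, and 356 CPM. Other markers were less clear. The monocyte marker Ccr2 averaged 2629.5 CPM in monocytes and 660, 84.1, and 8.39 CPM in the subsets. Plac8, another monocyte marker, averaged 1717.3 CPM in monocytes and 58.8, 8.52, and 7.6 CPM in the subsets. The macrophage marker Fcgr1 overlapped, at 177.1 to 375.2 CPM in monocyte libraries and 239.8 to 317.8 CPM in macrophage libraries. Transcripts of other cells were present in the macrophage libraries, where the plasma cell gene Jchain averaged 280 to 297 CPM in each subset and 0.174 CPM in monocytes.

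In oxidative phosphorylation, complexes I and II take electrons from NADH and succinate, complex III passes them to cytochrome c, and complex IV hands them to oxygen. Complexes I, III, and IV pump protons across the inner mitochondrial membrane, and complex V lets them return to make ATP. Most subunits are encoded in the nucleus, while a small group that includes the proton-pumping cores is encoded by mitochondrial DNA, so that the complexes need both genomes. Several complex IV subunits exist as alternative isoforms, with one member used in most cells and another restricted to tissues such as heart, skeletal muscle, lung, or testis. In macrophages, the balance of respiration and glycolysis is known to differ between activation states.

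Many of these genes share the binding motifs of NRF1, of ETS factors such as GABPA, and of YY1 near their start sites, so the letters of their promoters are shown before the values. RefSeq windows (GRCm38.p6) of 250 bases before to 50 bases after a start site were matched for 67 members, 5 of them with more than 1 window, which gave 72 windows. The NRF1 letters, GCGCA and GCGC with any 1 base between them, were found on either strand in 18 of the 72 windows, or 25% (95% Wilson interval 16.4 to 36.1%), against 9.14% of the 13749 windows of all genes tested for expression and 4.6% of all 32851 windows. The ETS letters CCGGAAG were in 22.2% of member windows and 16.4% of those of tested genes, and the YY1 letters AAGATGGCG were in 9.72% and 2.73%. Before the start site alone, the YY1 shares were 1.39% and 1.06%. The SP1 letters GGGCGG were less common in member windows than in those of tested genes, at 40.3% against 60.0%, the CCAAT letters were in 41.7% against 37.3%, and the ERRA letters TCAAGGTCA were in 2.78% against 0.247%, a share that rests on 2 member windows. All 6 motifs were searched on both strands, and none contains another, although matches may overlap. The lines below give the last 120 bases before the start site of 6 members, 5′ to 3′ along the gene, with the matched letters in capitals. They were chosen because Ndufb3, Ndufb7, Uqcrh, and Atp5c1 fell in every macrophage subset, Atp5g2 differed between the subsets, and Sdha had similar levels in all 4 populations.
Sdha (chr13:74350241-74350360, minus strand): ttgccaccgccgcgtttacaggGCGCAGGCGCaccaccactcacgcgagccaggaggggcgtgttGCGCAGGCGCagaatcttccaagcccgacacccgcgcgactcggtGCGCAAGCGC
Atp5c1 (chr2:10080433-10080552, minus strand): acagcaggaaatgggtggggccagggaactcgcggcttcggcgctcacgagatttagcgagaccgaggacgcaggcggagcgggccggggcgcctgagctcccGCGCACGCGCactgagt
Atp5g2 (chr15:102671048-102671167, minus strand): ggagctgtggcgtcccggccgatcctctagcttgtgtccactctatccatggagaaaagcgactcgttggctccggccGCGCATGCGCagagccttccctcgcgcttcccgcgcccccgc
Uqcrh (chr4:116075071-116075190, minus strand): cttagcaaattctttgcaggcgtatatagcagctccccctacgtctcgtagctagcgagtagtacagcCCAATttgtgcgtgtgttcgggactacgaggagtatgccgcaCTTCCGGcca
Ndufb7 (chr8:83566638-83566757, plus strand): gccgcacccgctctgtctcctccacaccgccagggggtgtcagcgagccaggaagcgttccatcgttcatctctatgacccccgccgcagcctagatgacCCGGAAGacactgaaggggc
Ndufb3 (chr1:58586277-58586396, plus strand): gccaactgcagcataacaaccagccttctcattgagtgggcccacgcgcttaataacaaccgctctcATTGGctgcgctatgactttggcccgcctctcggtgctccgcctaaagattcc

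The capitals are NRF1 letters in Sdha, Atp5c1, and Atp5g2, a CCAAT box and ETS letters in Uqcrh, ETS letters in Ndufb7, and a CCAAT box read on the other strand in Ndufb3. Sdha, with 3 NRF1 matches, had similar mRNA levels in monocytes and macrophages, whereas Atp5c1, with 1 match in the window shown, was among the 5 members that fell most in Tim-4+CD4+ macrophages. Members with and without NRF1 letters differed little in their median change. In Tim-4-CD4- macrophages the median log2 fold change over monocytes was -0.51 for the 17 members with the letters and -0.45 for the 50 without. The medians were -0.75 and -0.69 with CD4 alone, and -0.72 and -0.58 with both proteins. These shares and medians are descriptions, and a match was not taken as a bound site.

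Respiratory chain subunits were lower in all 3 macrophage subsets than in blood monocytes. The CPM of all 82 members summed to 6433, 5432, and 5536 in the monocyte libraries, to 4129 to 4483 in Tim-4-CD4- macrophages, to 3599 to 3899 in Tim-4-CD4+ macrophages, and to 3604 to 4621 in Tim-4+CD4+ macrophages. No macrophage library reached the level of the lowest monocyte library. The means were 5800 ± 551 (SD, n = 3) in monocytes, 4337 ± 149 (n = 4), 3768 ± 151 (n = 4), and 3877 ± 496 (n = 4), so that the monocyte mean was 1.34, 1.54, and 1.5 times that of the 3 subsets. CPM is a share of a library's reads, and in bulk RNA fewer cells of a type and less RNA per cell cannot be told apart.

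By complex, the decrease was largest for complex III and smallest for complex II. The monocyte mean of complex III was 572 ± 46.6 CPM (SD, n = 3), which was 1.51, 1.72, and 1.69 times the means of the 3 subsets. Complex I had ratios of 1.41, 1.60, and 1.52, and complex IV of 1.32, 1.60, and 1.51. Complex II, with 408 ± 35.2 CPM in monocytes, had ratios of 1.09, 1.14, and 1.12, and its 384 to 448 CPM in monocyte libraries overlapped with the 418 CPM of 1 Tim-4+CD4+ library. Its share of the summed CPM of all members was thus 7.04 ± 0.15% in monocytes (SD, n = 3) and 8.64 ± 0.245, 9.54 ± 0.237, and 9.42 ± 0.36% in the subsets (n = 4 each), a difference larger than the SD of any population, while the share of complex V lay between 35.4 and 36.7% in each population.

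**Figure D1:**
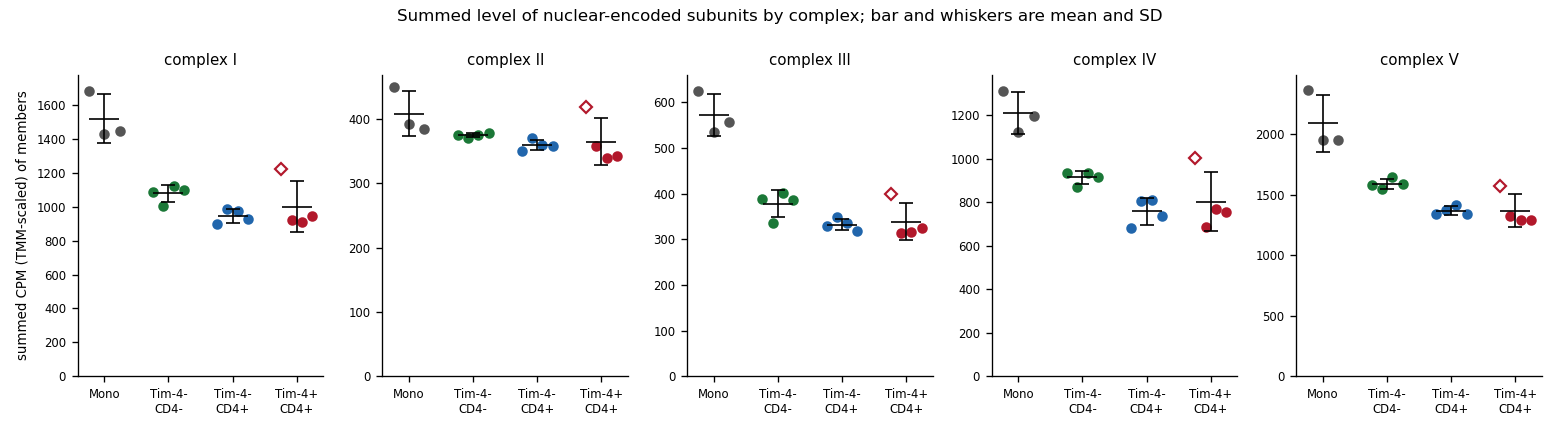
Summed CPM of the members of each complex (y axis, scaled with TMM) in each library of Ly6Chi monocytes (Mono) and of the 3 macrophage subsets; points are libraries, bars and whiskers the mean and SD, and the open diamond is Tim-4+CD4+ replicate 1. The monocyte mean is the highest for every complex, and the open diamond, at 1224 CPM for complex I, lay above the 910 to 942 CPM of the other 3 libraries of its subset.

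Gene by gene, 52 of the 82 members were lower in Tim-4-CD4- macrophages than in monocytes and 5 were higher, at an adjusted p under 0.05 by edgeR's quasi-likelihood test. Among all 15802 genes tested, 28.1% were lower and 37.3% were higher in this comparison. In Tim-4-CD4+ macrophages 62 members were lower and 4 were higher, with 30.7% and 39.1% over all genes, and in Tim-4+CD4+ macrophages 57 were lower and 4 higher, with 31.3% and 39.5%. The median log2 fold change of the members was -0.43, -0.66, and -0.58 in the 3 comparisons, and that of all genes was 0.08, 0.11, and 0.10. The 3 comparisons share the monocyte libraries. Without monocyte replicate 1, the lower members numbered 40, 51, and 50, and the medians were -0.34, -0.54, and -0.45. All 82 members had passed the filter on low counts, 51 were lower in every subset, 4 were higher in every subset, and 14 passed in none. Of the 4 higher members, Cox4i2, Cox6a2, and Ndufa4l2 had 0 to 2 reads in all monocyte libraries together and passed the filter only through the macrophages, so that they had to differ and their direction is no finding, which leaves Atp5s. Of the lower members, 3, 11, and 7 in the 3 comparisons also fell at least 2-fold. The share of all genes at that cut is not given, so these counts have no background.

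**Figure D2:**
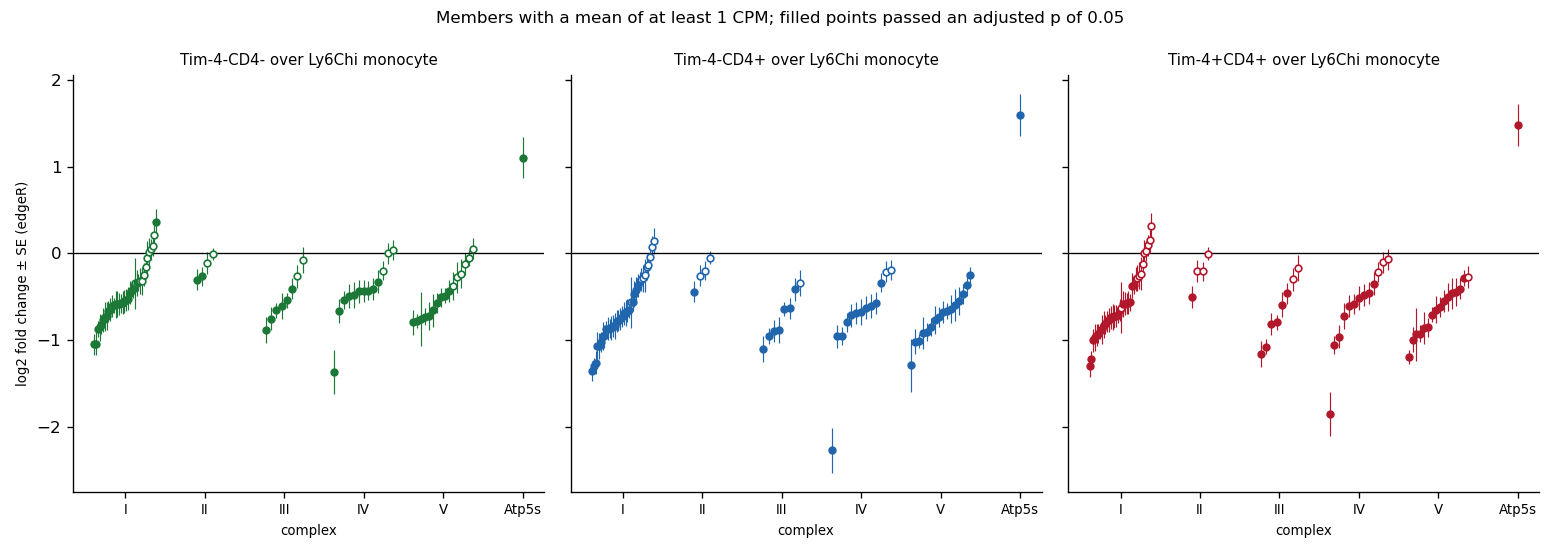
Log2 fold change over monocytes ± SE (y axis) of the 78 members with a mean of at least 1 CPM, grouped by complex (x axis) in each macrophage subset; filled points passed an adjusted p of 0.05. Most filled points lie below 0, the lowest point of complex IV is Cox6b2, and Atp5s lies above 0 in each panel.

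Complex I oxidizes NADH in a peripheral arm built on 7 nuclear-encoded core subunits. Of these 7, 5 were lower in Tim-4-CD4- macrophages, 7 in Tim-4-CD4+ macrophages, and 6 in Tim-4+CD4+ macrophages. Ndufv1, which carries the NADH-binding site, had 58.2, 50.2, and 49.7 CPM in the monocyte libraries, 35.4 to 38.1 CPM in Tim-4-CD4-, 25.9 to 37.0 CPM in Tim-4-CD4+, and 31.8 to 42.4 CPM in Tim-4+CD4+ macrophages. No macrophage library overlapped with monocytes, and the log2 fold changes were -0.54 ± 0.12 (SE), -0.73 ± 0.12, and -0.57 ± 0.12 (adjusted p = 0.0011, 5.9e-05, and 0.00051 by edgeR). Ndufs1, the largest core subunit, which carries iron-sulfur centers, fell by 0.33, 0.32, and 0.36 on the log2 scale.

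The accessory subunits of complex I surround the core and are needed for assembly and stability. Of 29 accessory members, 19, 20, and 19 were lower in the 3 subsets. Ndufb3, a subunit of the membrane arm, had 44.7, 43.5, and 45.7 CPM in monocytes, 23.6, 17.9, 22.6, and 22.5 CPM in Tim-4-CD4-, 18.5, 19.9, 15.4, and 16.2 CPM in Tim-4-CD4+, and 20.4, 15.1, 18.3, and 18.7 CPM in Tim-4+CD4+ macrophages. All 12 macrophage libraries lay far below monocytes, and the log2 fold changes of -1.04 ± 0.12, -1.35 ± 0.12, and -1.30 ± 0.12 (SE, adjusted p = 8.9e-07, 3.1e-08, and 4.7e-08 by edgeR) were the largest decreases of complex I. Ndufb7, another membrane arm subunit, fell by 1.04, 1.26, and 1.0 on the log2 scale from 54.1 ± 10.7 CPM (SD, n = 3), and Ndufb10 fell by 0.82, 1.02, and 0.92. In the membrane arm Ndufc2, with 45.9 ± 1.90 CPM in monocytes and 48.8 ± 5.18, 41.9 ± 4.12, and 46.6 ± 6.43 CPM in the subsets, did not pass the test in any of them. Once GC content and length were modelled, it was lower in the first and last of them, at -0.28 and -0.31 (adjusted p = 0.0056 and 0.0024 by edgeR). Of the other accessory members, in either arm, Ndufa2, Ndufa5, Ndufa9, Ndufab1, Ndufb4, Ndufc1, and Ndufs5 did not pass in any subset. Ndufa12 was the single complex I member called higher, from 12.9, 9.32, and 8.21 CPM in monocytes to 12.4, 10.8, 16.2, and 12.8 CPM in Tim-4-CD4- macrophages. The groups overlapped, and its log2 fold change of 0.36 ± 0.15 (SE, adjusted p = 0.042 by edgeR) lost its call in 8 of 25 alternative settings of the analysis.

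Complex II, succinate dehydrogenase, also works in the tricarboxylic acid cycle and has no mitochondrially encoded subunit. Sdha, its flavoprotein, had 198, 175, and 177 CPM in monocytes, 179, 189, 181, and 180 CPM in Tim-4-CD4-, 180, 175, 181, and 173 CPM in Tim-4-CD4+, and 189, 187, 180, and 176 CPM in Tim-4+CD4+ macrophages. The 4 populations overlapped throughout, and the log2 fold changes of -0.01, -0.05, and 0.00 had an SE of 0.07 each. Sdhb, the iron-sulfur subunit, fell in the subsets with CD4, by 0.44 and 0.50 on the log2 scale from 85.9 ± 9.59 CPM (SD, n = 3). The calls of Sdhb and Sdhd in Tim-4-CD4- macrophages, at -0.30 and -0.26, were lost in 17 and 20 of 25 alternatives. The membrane anchor Sdhc did not pass in any subset.

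Complex III carries electrons from ubiquinol to cytochrome c. Of its 8 members, 6, 7, and 6 were lower in the 3 subsets. Uqcrh, the hinge protein, had 98.8, 88.2, and 103 CPM in monocytes, 53.9, 39.4, 54.2, and 62.5 CPM in Tim-4-CD4-, 40.9, 53.9, 45.2, and 40.4 CPM in Tim-4-CD4+, and 52.0, 37.0, 39.8, and 44.9 CPM in Tim-4+CD4+ macrophages. The groups did not overlap with monocytes, and the log2 fold changes were -0.88, -1.10, and -1.15, with an SE of 0.15 each. Uqcrc1, a core protein, fell from 150 ± 22.4 CPM (SD, n = 3) to 89.6 ± 3.10, 81.2 ± 1.15, and 85.8 ± 18.5 CPM (n = 4 each). Uqcrfs1, the Rieske iron-sulfur protein that makes the first electron transfer, fell by 0.65, 0.95, and 1.07 on the log2 scale. Uqcr10 did not pass in any subset.

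Complex IV, cytochrome c oxidase, reduces oxygen. The isoform used in most cells fell for several of its subunits. Cox4i1, the largest nuclear-encoded subunit of the complex, had 325, 262, and 299 CPM in monocytes, 192, 199, 176, and 181 CPM in Tim-4-CD4-, 134, 150, 168, and 159 CPM in Tim-4-CD4+, and 201, 134, 138, and 135 CPM in Tim-4+CD4+ macrophages, with no overlap between monocytes and macrophages. Its log2 fold changes were -0.66 ± 0.13, -0.95 ± 0.13, and -0.96 ± 0.13 (SE). Cox7a2l, also known as SCAF1, had 199 to 203 CPM in monocytes and fell by 0.54, 0.95, and 1.06. Cox5a and Cox8a did not pass in any subset. Once GC content and length were modelled, however, Cox8a was lower in Tim-4-CD4- macrophages, at -0.58 (adjusted p = 6.9e-06 by edgeR), and Cox5a was higher in Tim-4+CD4+ macrophages, at 0.39 (adjusted p = 0.014 by edgeR). Without that model Cox8a had 118 ± 13.6 CPM in monocytes (SD, n = 3) and 119 ± 4.45, 102 ± 9.40, and 113 ± 19.7 CPM in the subsets (n = 4 each). Ndufa4 fell by 0.41, 0.57, and 0.48, but in the model with GC content and length it no longer passed in any subset, and its value in Tim-4+CD4+ macrophages turned to 0.03. The calls of Cox6a1 in Tim-4-CD4- macrophages and in those with both proteins, at -0.32 and -0.35, were lost in 18 and 17 of 25 alternatives.

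Among the isoforms restricted to certain tissues, Cox6b2, known from testis, was the member with the largest decrease in complex IV. It had 3.99, 5.28, and 5.20 CPM in monocytes, 1.53, 1.79, 1.42, and 2.74 CPM in Tim-4-CD4-, 1.14, 0.885, 0.780, and 1.20 CPM in Tim-4-CD4+, and 1.66, 1.11, 1.24, and 1.36 CPM in Tim-4+CD4+ macrophages. The log2 fold changes were -1.37 ± 0.25, -2.26 ± 0.26, and -1.84 ± 0.25 (SE, adjusted p = 0.00017, 7.4e-07, and 6.3e-06 by edgeR). Per kilobase of exon, Cox6b2 made up 3.5 ± 0.867% of the sum of Cox6b1 and Cox6b2 in monocytes (SD, n = 3) and 1.84 ± 0.573, 1.2 ± 0.354, and 1.48 ± 0.107% in the subsets (n = 4 each).

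The isoforms Cox6a2, Cox4i2, and Ndufa4l2 were nearly absent from monocytes and low in macrophages, all at a mean under 1 CPM. They passed the filter on low counts only through the macrophage libraries, so their values are given as a description. Cox6a2 also had no value in 1 of the 25 alternatives, and Cox4i2 and Ndufa4l2 had values in only 19 or 20, because they did not pass the filter there. Cox6a2, the form of heart and skeletal muscle, had 0, 0, and 0.0186 CPM in the monocyte libraries, 0.694, 0.302, 0.474, and 0.569 CPM in Tim-4-CD4-, 0.293, 0.531, 0.384, and 0.439 CPM in Tim-4-CD4+, and 0.759, 0.620, 0.322, and 0.415 CPM in Tim-4+CD4+ macrophages. This was 1 read over the 3 monocyte libraries against 100, 132, and 195 reads in the subsets, and the pooled ratio in Tim-4-CD4- macrophages was 149 with a 95% counting interval of 26.2 to 5954. Cox4i2, the form known from lung and from hypoxia, had 2 reads in monocytes and 22, 30, and 99 reads in the subsets, which gave pooled ratios of 16.4 (4.04 to 144), 13.9 (3.54 to 120), and 43.2 (11.6 to 361). Ndufa4l2, a paralog of Ndufa4 induced by hypoxia, had 0 reads in monocytes and 16, 24, and 70 reads in the subsets. With 3 reads over the monocyte group, taken as the limit that 0 reads allow, the pooled ratios would be 7.96, 7.43, and 20.3. The intervals cover counting error only, and the ratios of Ndufa4l2 leave out the counting error of the macrophage reads.

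Against their common partners these isoforms remained small. Per kilobase of exon, Cox6a2 made up 0.557 ± 0.186, 0.554 ± 0.131, and 0.585 ± 0.187% of Cox6a1 and Cox6a2 together in the subsets (SD, n = 4 each), and Cox4i2 and Ndufa4l2 made up at most 0.614 and 1.18% of their pairs in any library. Cox7a1, another muscle form, had 0.127 to 0.260 CPM in monocytes and 0.0183 to 0.740 CPM in macrophages, and did not pass the test in any subset. In Tim-4+CD4+ macrophages its 0.301 to 0.740 CPM lay above every monocyte library, and it passed there in 8 of 24 alternatives. The 7 mesenchymal and endothelial markers, all of them counted, together had 23.6 to 30.3 CPM in monocytes. Their sum rose from subset to subset, at 162 to 185, 235 to 269, and 364 to 466 CPM. Like this sum, Cox6a2, Cox4i2, Ndufa4l2, and Cox7a1 had their lowest mean in monocytes. Among the subsets, only Ndufa4l2 rose in the same order, with means of 0.0804, 0.0996, and 0.203 CPM. Cox6a2 (0.510, 0.412, and 0.529 CPM), Cox4i2 (0.111, 0.0796, and 0.260), and Cox7a1 (0.481, 0.268, and 0.533) were lowest with CD4 alone. Most of the marker sum was Pecam1, which myeloid cells also express, at 15 CPM in monocytes and 104, 185, and 305 CPM in the subsets. The defining marker Pdgfra was at 0 in every monocyte library, and Col1a1 averaged 0.00855 CPM in monocytes and 19.4, 20.5, and 32.0 CPM in the subsets. Acta2 of the same list averaged 10.4 CPM in monocytes and 10.4, 9.48, and 14.4 CPM in the subsets. Markers of epithelium summed to 0.350 to 1.65 CPM in monocytes and 8.91 to 26.7 CPM in macrophages, with Epcam, Fabp2, and Lgr5 at 0 in every monocyte library. Their part in the levels of Cox6a2, Cox4i2, and Ndufa4l2 was not tested.

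**Figure D3:**
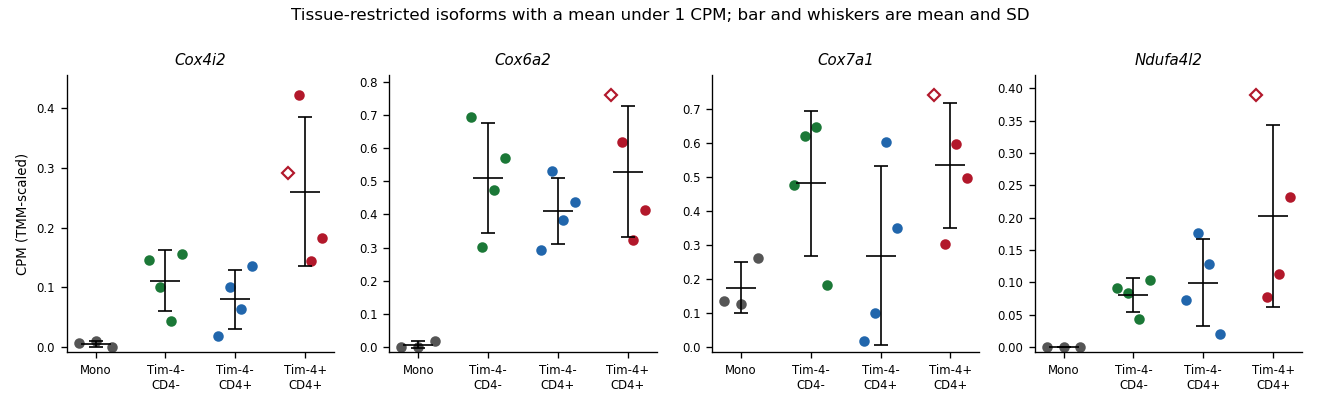
CPM (y axis) of the 4 members with a mean under 1 CPM in each library; points are libraries, bars and whiskers the mean and SD, and the open diamond is Tim-4+CD4+ replicate 1. Cox6a2 and Ndufa4l2 are at or near 0 in the 3 monocyte libraries, and Cox7a1 spreads from 0.0183 to 0.740 CPM over the macrophages.

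ATP synthase is built of a catalytic F1 head, a ring of c subunits in the membrane, and a stalk that holds them together. The stalk and membrane members fell in every subset without exception, 8 of 8, with median log2 fold changes of -0.69, -0.87, and -0.85. Among them Atp5h fell from 123 ± 9.99 (SD, n = 3) to 71.2 ± 3.50, 61.0 ± 3.23, and 62.0 ± 17.2 CPM (n = 4 each), and Atp5f1 fell by 0.73, 0.90, and 0.92 on the log2 scale. Atp5k, or subunit e, fell by 0.75, 1.29, and 0.93, with an SE of 0.31. Of the 5 members of the F1 head, 2 were lower in Tim-4-CD4- macrophages and 5 in each of the others. Atp5a1, the alpha subunit, had the highest CPM of all members in monocytes, at 638, 545, and 511, and fell by 0.48, 0.66, and 0.70.

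The F1 subunits did not move by one amount. The gamma subunit Atp5c1, the shaft that turns within the head, had 204, 178, and 181 CPM in monocytes, 110, 102, 112, and 115 CPM in Tim-4-CD4-, 93.9, 96.6, 91.7, and 92.0 CPM in Tim-4-CD4+, and 87.9, 84.5, 77.3, and 78.2 CPM in Tim-4+CD4+ macrophages. These 4 groups did not overlap, and the log2 fold changes over monocytes were -0.78 ± 0.08, -1.0 ± 0.08, and -1.19 ± 0.08 (SE). The catalytic beta subunit Atp5b, its partner in the head, had 552, 447, and 429 CPM in monocytes and 442 to 474 CPM in Tim-4-CD4- macrophages, with overlap, and a log2 fold change of -0.05 ± 0.09 (SE, adjusted p = 0.62 by edgeR). In the subsets with CD4, Atp5b fell by 0.25 and 0.28, calls that were lost in 10 and 4 of 25 alternatives. Of the 3 genes for the c subunit, Atp5g1, Atp5g2, and Atp5g3, none passed in Tim-4-CD4- macrophages, 3 were lower in Tim-4-CD4+ macrophages, and 2 were lower in those with both proteins. With CD4 alone, the call of Atp5g3 was lost in 6 of 25 alternatives.

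Atp5s was higher in each subset, with 0.687, 0.7, and 0.687 CPM in monocytes, 1.27 to 1.73 CPM in Tim-4-CD4-, 1.88 to 2.28 CPM in Tim-4-CD4+, and 1.43 to 2.58 CPM in Tim-4+CD4+ macrophages. No macrophage library overlapped with monocytes, and the log2 fold changes were 1.10 ± 0.24, 1.59 ± 0.24, and 1.48 ± 0.24 (SE, adjusted p = 0.00073, 2.0e-05, and 3.8e-05 by edgeR). It was the one member above a mean of 1 CPM that was higher in all 3.

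Between the macrophage subsets, the members that differed were lower in the subsets with CD4. In Tim-4-CD4+ against Tim-4-CD4- macrophages, 7 members were lower and none was higher, while 5.53% of all genes were lower and 4.52% higher. A count of 7 of 82 is a little above that background for lower genes, and the median log2 fold change was -0.22 for the members and 0.00 for all genes. In Tim-4+CD4+ against Tim-4-CD4- macrophages, 9 members were lower and none higher, against 11.9% and 11.3% of all genes, so that 9 of 82 is near the background, and the median was -0.11. The 2 comparisons share the Tim-4-CD4- libraries. In the higher direction, where edgeR called 0 members in both comparisons, 1 and 0 members had an unadjusted p under 0.05, and DESeq2 also called 0 in both.

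The library of Tim-4+CD4+ replicate 1 stood apart from the other 3 of its subset. It had the highest CPM of the 4 for 71 of the 82 members, and its summed CPM was 4621 against 3604, 3628, and 3657. How often it was the highest over all genes is not given. It also had the highest sum of mitochondrial ribosomal proteins, at 1341.4 CPM against 1054.6 to 1087.8 CPM. For cytosolic ribosomal proteins its sum was 17049.4 CPM against 11714.2 to 13408.1 CPM. For subunits encoded by mitochondrial DNA it was not the highest, at 10631.9 CPM against 7889.4 to 11556.9 CPM. Over all genes, its counts differed from those of the other libraries of its subset by a chi-square of 196 to 250 per degree of freedom, against 36.2 to 69.2 among the other 3. Without this library, 28 members were lower in Tim-4+CD4+ than in Tim-4-CD4- macrophages, among them the 9 called with it, and the background was 12.4% lower and 11.8% higher. The count of lower members in Tim-4-CD4+ against Tim-4-CD4- macrophages then rose from 7 to 16 with all 7 included, although that library is in neither group, and the background was 7.45%. Leaving out replicate 1 of the Tim-4-CD4+ libraries lowered the count of 7 to 3, and leaving out replicate 3 of the Tim-4-CD4- libraries lowered the count of 9 to 5. No call reached a 2-fold change, and the largest was that of Cox6b2, at -0.9 ± 0.24 (SE) in macrophages with CD4 alone.

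**Figure D4:**
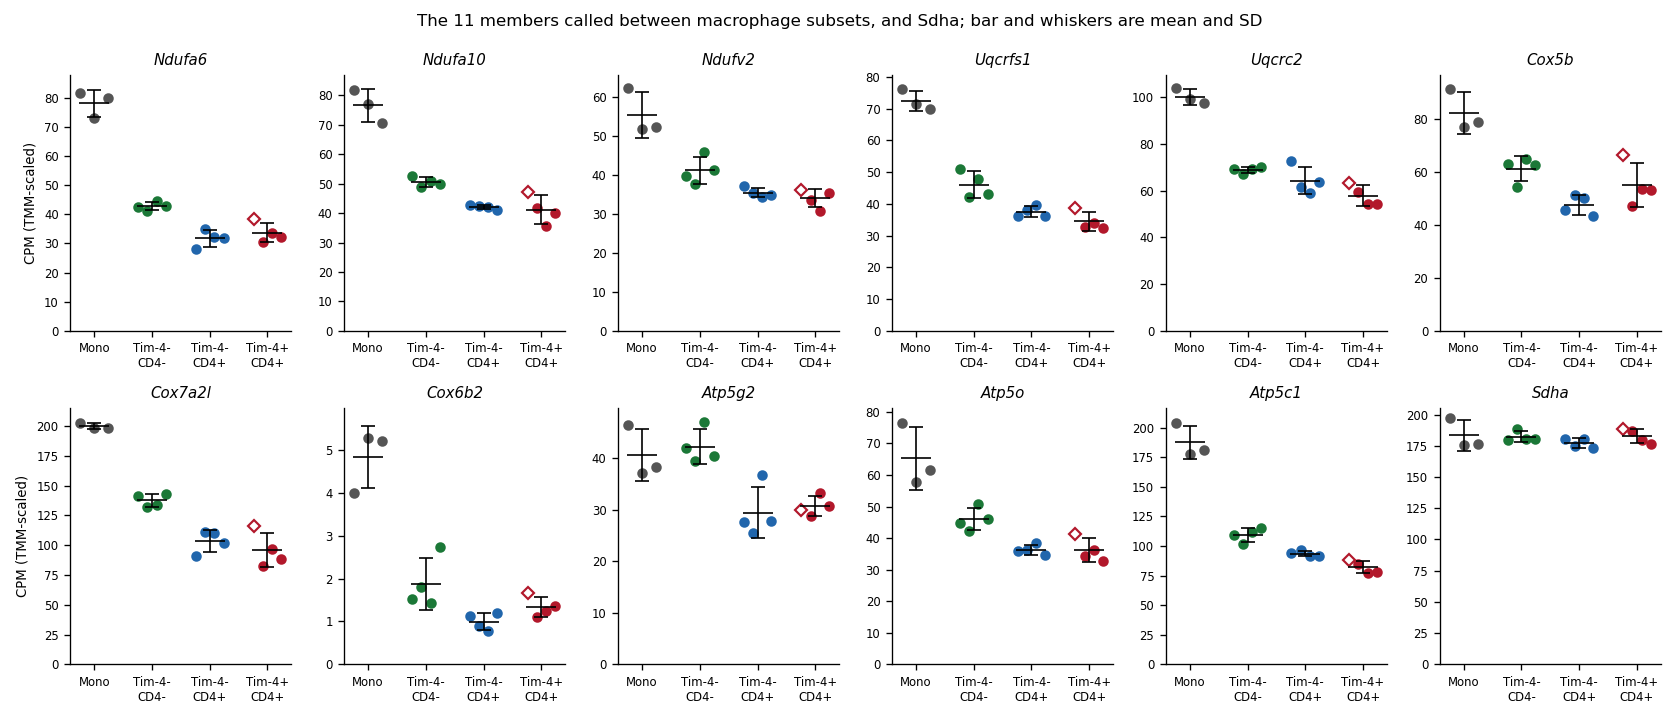
CPM (y axis) of the 11 members called between macrophage subsets, and of Sdha, in each library; points are libraries, bars and whiskers the mean and SD, and the open diamond is Tim-4+CD4+ replicate 1. Ndufa6 and Cox7a2l are lower in both subsets with CD4 than in Tim-4-CD4- macrophages, and Sdha shows no such step, with 173 to 189 CPM in all 12 macrophage libraries.

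Ndufa6 and Atp5g2 were called in both comparisons under every alternative that was run. Ndufa6, a LYR-motif subunit at the base of the peripheral arm of complex I, had 42.6, 41.2, 44.5, and 42.9 CPM in Tim-4-CD4-, 28, 35.1, 32.1, and 31.9 CPM in Tim-4-CD4+, and 38.4, 30.7, 33.8, and 32.1 CPM in Tim-4+CD4+ macrophages. Both subsets lay below all 4 Tim-4-CD4- libraries, with log2 fold changes of -0.43 ± 0.09 and -0.34 ± 0.09 (SE, adjusted p = 0.0037 and 0.0081 by edgeR), and over the 25 alternatives the adjusted p ranged from 0.00028 to 0.017 and from 0.00018 to 0.041. Atp5g2, whose promoter is shown above, had 42.1, 39.4, 47.1, and 40.5 CPM in Tim-4-CD4-, 27.7, 25.4, 36.8, and 27.9 CPM in Tim-4-CD4+, and 29.9, 28.9, 33.3, and 30.8 CPM in Tim-4+CD4+ macrophages, again without overlap. Its log2 fold changes were -0.52 ± 0.11 and -0.46 ± 0.11 (SE, adjusted p = 0.0059 and 0.0063 by edgeR; over the alternatives 0.00057 to 0.030 and 0.00030 to 0.031). In Tim-4-CD4- macrophages Atp5g2 was at the level of monocytes, which had 46.5, 37.1, and 38.4 CPM.

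Cox7a2l had 142, 132, 134, and 143 CPM in Tim-4-CD4-, 91.1, 111, 110, and 102 CPM in Tim-4-CD4+, and 116, 83.0, 97.0, and 88.8 CPM in Tim-4+CD4+ macrophages. The subsets with CD4 did not overlap with Tim-4-CD4- macrophages, and the log2 fold changes were -0.41 ± 0.10 and -0.52 ± 0.10 (SE, adjusted p = 0.012 and 0.00093 by edgeR, with ranges over the alternatives of 0.0012 to 0.052 and 3.3e-05 to 0.0099). Uqcrfs1 fell by 0.3 and 0.42, and its second value passed in every alternative, at an adjusted p of 0.00010 to 0.015, whereas its first was lost in 9 of 25, with an adjusted p of up to 0.12. Atp5c1 fell by 0.42 in Tim-4+CD4+ macrophages, with an adjusted p of 0.00056 by edgeR (range over the alternatives 1.0e-06 to 0.0073). The other calls were Cox6b2, Cox5b, and Atp5o with CD4 alone and Atp5o, Ndufa10, Ndufv2, and Uqcrc2 with both proteins, and each was lost in 4 to 12 of 25 alternatives.

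Between the subsets that share CD4 and differ in Tim-4, no member passed the test. In Tim-4+CD4+ over Tim-4-CD4+ macrophages, 0 members were called by edgeR, the smallest adjusted p was 0.20, and 2.07% of all genes were higher and 1.34% lower. At an unadjusted p under 0.05, 4 members were higher and 1 was lower, and DESeq2 called 0. The median log2 fold change of 0.09 became -0.04 without Tim-4+CD4+ replicate 1. For Sdha the difference was 0.05 ± 0.07 (SE) on the log2 scale, and for Cox4i1 it was -0.01 ± 0.12.

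Levels were compared between members as RPKM, the CPM divided by the kilobases of exon, averaged over all libraries. In complex I the highest member was Ndufc2 at 60.7 RPKM and the lowest Ndufb4 at 1.49, in complex II Sdhd at 48.9 and Sdhc at 19.7, in complex III Uqcr10 at 47.3 and Uqcrq at 22.1, in complex IV Cox8a at 182 and Ndufa4l2 at 0.0933, and in complex V Atp5a1 at 130 and Atp5l at 2.08 RPKM. Only uniquely mapped reads were counted. The annotation holds pseudogenes named after Atp5c1, Atp5k, Atp5l, Cox6c, Ndufa11, Ndufab1, Ndufb4, Ndufs6, and Uqcrh, so that the levels of these members are uncertain. Pseudogenes under other names were not searched for. With the longest transcript as length, Sdha, Uqcrh, Cox4i1, and Atp5b became the highest members of complexes II to V, at 62.5, 71.1, 248.5, and 224 RPKM, so the order within a complex depends on the transcript model.

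The summed level of the subunits encoded by mitochondrial DNA was not lower in macrophages. The 12 such genes counted summed to 6998 to 9046 CPM in monocytes, 7144 to 8325 CPM in Tim-4-CD4-, 8682 to 10784 CPM in Tim-4-CD4+, and 7889 to 11557 CPM in Tim-4+CD4+ macrophages. The ratio of this sum to that of the 82 members was 1.26 to 1.41 in monocytes, 1.73 to 1.86 in Tim-4-CD4-, 2.23 to 3.0 in Tim-4-CD4+, and 2.17 to 3.21 in Tim-4+CD4+ macrophages, so that monocytes, Tim-4-CD4- macrophages, and the subsets with CD4 did not overlap. Of the 8 that passed the filter on low counts, 2, 4, and 5 were higher than in monocytes and 2 were lower in each subset. Among the lower ones was mt-Nd3, which was near the floor. It averaged 1.07 CPM in monocytes and 0.146, 0.108, and 0.204 CPM in the subsets. Over all genes tested, 37.3, 39.1, and 39.5% were higher and 28.1, 30.7, and 31.3% lower. mt-Cytb, the cytochrome b of complex III, rose from 1021 CPM in monocytes to 1363, 1782, and 1854 CPM, by 0.42 ± 0.14, 0.80 ± 0.14, and 0.86 ± 0.14 (SE) on the log2 scale, while mt-Nd5 of complex I fell from 1137 to 660, 799, and 674 CPM. The genes mt-Co2, mt-Co3, mt-Atp6, and mt-Nd4l each averaged under 0.1 CPM over all libraries and did not pass the filter. The sum therefore rests on mt-Co1, mt-Cytb, mt-Nd1, mt-Nd2, mt-Nd4, and mt-Nd5. The libraries were made from polyadenylated RNA, and only uniquely mapped reads were counted. The part of either step in these low values was not tested.

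**Figure D5:**
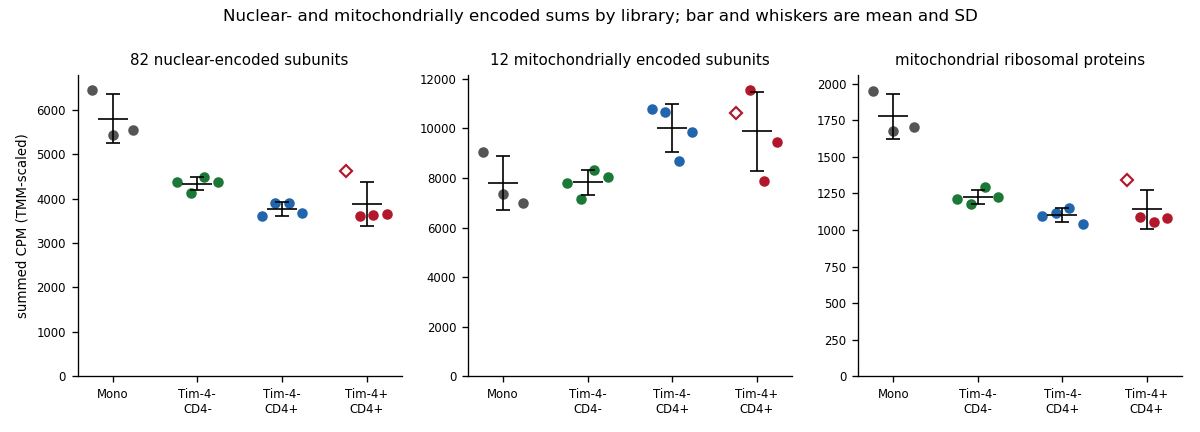
Summed CPM (y axis) of the 82 members, of the 12 mitochondrially encoded subunits, and of the mitochondrial ribosomal proteins in each library; points are libraries, bars and whiskers the mean and SD, and the open diamond is Tim-4+CD4+ replicate 1. Both nuclear-encoded sums are highest in monocytes, and the mitochondrially encoded sum is not, with means of 7792 CPM in monocytes and 9993 and 9880 CPM in the subsets with CD4.

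Other nuclear genes of mitochondria were read from the same test. Over all genes tested, 28.1, 30.7, and 31.3% were lower than in monocytes in the 3 subsets, and 37.3, 39.1, and 39.5% were higher. Of 78 mitochondrial ribosomal proteins, which make the mitochondrially encoded subunits, 57, 61, and 58 were lower than in monocytes in the 3 subsets and 5, 3, and 3 were higher. Assembly factors of the complexes moved less, with 19, 23, and 21 of 47 lower and 6 higher in each, and medians of -0.18, -0.24, and -0.25. Of 17 genes of the tricarboxylic acid cycle and pyruvate entry, 10, 11, and 10 were lower and 2, 1, and 1 higher. Among them citrate synthase (Cs) fell from 210 CPM to 141, 120, and 111 CPM. It also fell between subsets, by 0.23 and 0.34 in the subsets with CD4 against Tim-4-CD4- macrophages. Of 16 electron carriers and coenzyme Q genes, 7 were lower in each subset and 1, 2, and 3 were higher, with medians of -0.09, -0.23, and -0.15. Cycs, the gene of cytochrome c, fell from 38.8 CPM to 21.3, 17.5, and 17.2 CPM. Of 12 tested genes for inhibitors and alternative routes, 6, 5, and 5 were lower and 2, 3, and 3 higher.

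Regulators of mitochondrial genes did not move one way. Of 15 tested, 7, 7, and 9 were lower and 2, 4, and 4 were higher. Over all genes the shares were 28.1, 30.7, and 31.3% lower and 37.3, 39.1, and 39.5% higher. Ppargc1b, the coactivator PGC-1 beta, rose from 2.92 CPM in monocytes to 11.9, 15.3, and 13.6 CPM, by 2.04 ± 0.16, 2.41 ± 0.16, and 2.23 ± 0.16 (SE) on the log2 scale, whereas Nrf1, Yy1, and Tfam fell in every subset. Nrf1, whose letters are marked in the promoters, fell from 43.4 CPM to 33.8, 32.1, and 29 CPM, and Tfam, which packages mitochondrial DNA, fell from 26.9 CPM to 16.6, 17.2, and 16.8 CPM. Esrra, the estrogen-related receptor alpha, was higher in Tim-4+CD4+ than in Tim-4-CD4- macrophages, at 52.6 against 40.1 CPM (adjusted p = 0.011 by edgeR).

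Genes outside mitochondria fell as well. Cytosolic ribosomal proteins were taken by symbol, without symbols that end in l and a single digit, such as Rpl3 and Rpl4. Symbols that end in l alone were kept, so the list is not the full set of ribosomal subunits. Of the 76 cytosolic ribosomal proteins taken, 43, 73, and 71 were lower than in monocytes, beside 28.1, 30.7, and 31.3% of all genes. Their median log2 fold changes were -0.34, -0.92, and -0.95. Between the subsets, 67 and 65 of them were lower in the subsets with CD4 than in Tim-4-CD4- macrophages, beside 5.53 and 11.9% of all genes. The medians were -0.58 and -0.61, beyond the -0.22 and -0.11 of the respiratory members. Respiratory members were also shorter than other genes, with a median of 1578 bases of exon against 3924 for the genes tested. Once GC content and length were modelled, the members lower than in monocytes numbered 54, 64, and 64. The share of all genes lower in that model is not given, so these counts have no background of their own. The part of length in the changes was not tested. The part of translation genes in the changes of the respiratory members was not tested.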

How the data were processed

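Poly(A) RNA of 15 libraries was sequenced as stranded, paired-end reads. The authors trimmed reads with Trimmomatic 0.36, aligned them with STAR 2.4.2 to GRCm38.p4, kept uniquely mapped reads, and counted them per GENCODE gene with HTSeq 0.6.1p1; the strand setting is not given in the sources used here. The table they deposited holds raw counts.

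From these counts, edgeR 4.0.16 (R 4.3.3) was run on the 15802 genes that passed filterByExpr, with TMM scaling and 1 mean per population over all 15 libraries. Its quasi-likelihood test was applied to 6 contrasts, with Benjamini-Hochberg adjustment over all genes and a threshold of 0.05. CPM were scaled with TMM, and RPKM used the union of exons. Intervals of low counts were exact and cover counting error only. A count of 0 was given a limit of 3 reads over the group, and the ratio to it leaves out the counting error of the other group. The script was tested on simulated data. Alternatives were DESeq2 1.42.0, other scalings and filters, 2 populations at a time, a replicate block, thinned counts, a model of GC content and length, and leaving out each library.

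Members and gene lists were chosen with earlier results of these data known. Members named were catalytic and core subunits, isoform families, the 5 largest changes in each direction of each comparison at a mean of at least 1 CPM, calls between subsets, and the highest and lowest member per length of each complex. Ndufb10, Atp5f1, and Atp5h, and the members listed as passing in no subset, were named after their values were seen. The p-values measure the spread between pools of mice. The values of 1 core subunit that the naming rule would include are not reported here.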

Additional observations from a re-analysis of the deposited data

Results flagged for a closer look

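In 12 of 153 groups of 4 libraries, 1 library lay apart from the other 3 by Dixon's criterion, which chance meets in about 1 of 20 groups. Of the 12, 7 were Tim-4+CD4+ replicate 1, always on the high side. Its summed CPM was 4620.7 for all members (3603.8 to 3657.0 in the other 3), 1223.9 for complex I (910.0 to 941.6), 399.4 for complex III (313.9 to 325.8), and 1575.5 for complex V (1289.6 to 1322.7). Among single members it had 200.8 CPM of Cox4i1 (134.3 to 137.6), 79.09 CPM of Sdhb (52.24 to 55.69), and 81.85 CPM of Sdhc (53.41 to 57.63).

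Replicate 2 of the Tim-4-CD4- libraries was low for Atp5g3 at 62.51 CPM (80.46 to 83.39 in the other 3), for Cox7b at 20.37 CPM (27.01 to 27.65), and for Sdhb at 66.03 CPM (70.58 to 71.41), and high for Sdha at 188.6 CPM (179.3 to 180.7). Replicate 2 of the Tim-4-CD4+ libraries was high for Cox7a2, at 21.04 CPM (16.62 to 17.17). The sums and their members are not independent of each other.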

How the results depend on the processing

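Of 5419 values of named members under an alternative, 5173 kept their direction and their side of the threshold, 186 lost a call, 55 gained one, and 5 reversed, all 5 once GC content and length were modelled: Cox8a (-0.585) and Ndufc2 (-0.2825) in Tim-4-CD4- macrophages, and Cox5a (0.3946), Ndufa4 (0.0287), and Ndufc2 (-0.3121) in Tim-4+CD4+ macrophages, each over monocytes. All but Ndufa4 passed the threshold there. In that model the lower members between subsets numbered 11 and 15 in the subsets with CD4 against Tim-4-CD4-, and 1 between the subsets with CD4. Shares of all genes in that model and in the alternatives below are not given here. Members higher than in monocytes numbered 2, 1, and 2 at a mean of at least 1 CPM, which leaves out 3 of those called, and 3 and 2 in the first pair of comparisons with only 2 populations fitted and again with thinned counts. At least 2-fold lower were 3, 11, and 7 members against monocytes, and 0 and 0 between subsets, with no share of all genes at that cut given. With CD4 alone against Tim-4-CD4-, lower members numbered 4 with no filter, 14 with 2 populations fitted, and 4 with upper-quartile scaling, which gave 5 with both proteins. Leaving out 1 library gave 3 to 6, 2 to 5, and 2 to 5 higher members against monocytes. Lower ones numbered 40 to 56, 51 to 66, and 50 to 68, in each case fewest without monocyte replicate 1. In the subsets with CD4 against Tim-4-CD4-, lower ones numbered 3 to 16 and 5 to 28. The median RPKM of members was 23.54, and 33.67 with the longest transcript. YY1 letters were in 1.39% of member windows before the start site alone, against 1.06% for tested genes. The causes of these changes were not tested.

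Same-numbered macrophage libraries correlated at -0.1227 to 0.1607 in their deviations from group means, and titles and descriptions number the Tim-4-CD4+ libraries differently, so the numbers were not read as pairs. With a replicate block by titles, lower members numbered 49, 62, and 56 against monocytes and 7, 9, and 0 between subsets, and by descriptions 54, 63, and 61, and 10, 11, and 0.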
